A study of Homo sapiens with 6 samples.

Results

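Genes of the major histocompatibility complex (MHC) and of antigen presentation were examined in the established bladder cancer line J82, to ask how their transcripts differ after FOXC1 disruption. The 40 genes were chosen by name from the 57820 genes of the deposited count table: class I heavy chains with B2M (6), peptide transport and loading (9), the immunoproteasome and its activator (5), transactivators (5), class II chains with their processing factors (10), and ligands of the receptor NKG2D (5). Every name matched 1 row of the table, and those on chromosome 6 lay on its primary sequence. The study compared 3 control libraries, from J82 cells with a vector, with 3 libraries labelled FOXC1 KO, from J82 cells given a lentiviral CRISPR/Cas9 construct against FOXC1, which encodes a forkhead transcription factor. Cells of both groups grew in DMEM with 10% FBS, penicillin and streptomycin, and no cytokine or cisplatin treatment is named for these libraries. The cells were selected with puromycin, KO clones were checked for protein by Western blotting in the study, and neither the labels nor the methods say how many clones the 3 KO libraries came from. Nothing says that the libraries came from separate cultures, so p-values measure only the spread between these libraries.

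MHC class I molecules are made of a heavy chain and B2M and show peptides from inside the cell to CD8 T cells. The proteasome makes these peptides, the transporter TAP1/TAP2 moves them into the endoplasmic reticulum, ERAP1 and ERAP2 trim them, and tapasin with its partners loads them. MHC class II molecules pair an alpha with a beta chain, are guided by the invariant chain CD74, and are best known from professional antigen-presenting cells, although many carcinoma cells make them after interferon gamma. The transactivators NLRC5 (class I) and CIITA (class II) act at promoters through a module of X, X2 and Y boxes, which bind the RFX complex, CREB/ATF factors and NF-Y.

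Promoter stretches of 5 members that differed, and of HLA-B for comparison, are shown first. They were picked because they hold a match to elements through which this pathway is known to be controlled, so that each holds a match is no result. They are the 150 bases before the start given by RefSeq on GRCh38.p14, a build other than that of the counts, and 34 of the 40 members had an entry in that table. HLA-E, PDIA3, NLRC5, CIITA, HLA-DRA and CTSS had none. TAPBPL, which also differed, had an entry but no match to the elements listed next, and is not shown. Capitals mark a match, on either strand, to an interferon-stimulated response element (GAAA, any 2 bases and GAAA again), a GAS element (TTCNNNGAA), a Y box (ATTGG), an X2 box (TGACG), a forkhead core (TGTTTAC) or an X box core (GCAACAG, added after the sequences were seen).
HLA-B, chr6:31357180-31357329, minus strand: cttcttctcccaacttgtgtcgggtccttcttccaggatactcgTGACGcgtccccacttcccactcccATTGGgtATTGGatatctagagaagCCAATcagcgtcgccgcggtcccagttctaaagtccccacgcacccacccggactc
TAP2, chr6:32838740-32838889, minus strand: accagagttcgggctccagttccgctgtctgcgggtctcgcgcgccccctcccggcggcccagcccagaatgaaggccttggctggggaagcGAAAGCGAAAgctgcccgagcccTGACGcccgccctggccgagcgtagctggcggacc
ERAP2, chr5:96876350-96876499, plus strand: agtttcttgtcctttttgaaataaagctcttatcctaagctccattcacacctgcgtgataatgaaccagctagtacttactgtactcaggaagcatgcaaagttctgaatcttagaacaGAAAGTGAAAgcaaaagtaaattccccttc
HLA-DPA1, chr6:33073650-33073799, minus strand: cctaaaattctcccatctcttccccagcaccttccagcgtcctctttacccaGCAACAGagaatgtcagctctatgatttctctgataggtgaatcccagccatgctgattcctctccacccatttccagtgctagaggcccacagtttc
CD74, chr5:150412911-150413060, minus strand: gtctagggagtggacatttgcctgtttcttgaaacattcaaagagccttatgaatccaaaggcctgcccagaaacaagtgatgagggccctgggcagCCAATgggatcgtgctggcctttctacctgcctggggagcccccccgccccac
ULBP1, chr6:149963793-149963942, plus strand: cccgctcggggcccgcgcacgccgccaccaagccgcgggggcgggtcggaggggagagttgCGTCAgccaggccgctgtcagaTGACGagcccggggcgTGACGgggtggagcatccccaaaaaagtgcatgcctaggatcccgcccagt

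HLA-B held an X2 box match 106 bases before its start and Y box matches 81, 74 and 56 bases before it. TAP2 and ERAP2 each held a response element match, 58 and 30 bases before the start. HLA-DPA1 and ERAP2 have 2 entries each in the table, and the stretch shown is the one with the X box or response element match. In the 250 bases before the start, response element matches were found in 9 of the 34 members (26.5%) and in 3.71% of all 27305 genes of the table, which have 35116 entries. The 9 were HLA-F, B2M, TAP1, TAP2, TAPBP, PSMB10, PSME2, ERAP2 and RFX5. Y box matches were found in 61.8% of these members and 37% of all genes, X2 box matches in 44.1% and 24.9%, and GAS matches in 8.82% and 8.09%. The forkhead core was found in 1 member, ULBP1, 234 bases before its start and outside the stretch shown, and in 3.66% of all genes. The X box core was found in HLA-DPA1 alone among the members and in 4.20% of all genes. In B2M, TAP1 and TAPBP, 2 response element matches overlap each other, and no match in the stretches shown overlaps another. These are matches of letters and not tested sites.

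The libraries held 18408134 to 25350908 counts. The transcript of the targeted gene did not fall with the label: FOXC1 was at 18.4, 16.9 and 19.3 CPM (counts scaled to a common library total) in the control and 24.1, 22.2 and 21.1 CPM in the KO libraries, a log2 fold change of 0.30 (edgeR, SE 0.0914, adjusted p 0.0127), so transcript level does not check the labels, and all directions below rest on them. Across the alternative fits that adjusted p reached 0.0827. Here and below a gene is called when its adjusted p, over all genes tested, is under 0.05 and its fold change is over 1.3, or 0.379 on the log2 scale. Markers of blood cells were looked at because professional antigen-presenting cells make class II. CD3E and MS4A1 had 0 counts in all libraries, PTPRC (CD45) had 3 to 4 counts per library in control and 6 to 9 in KO, and the sum of 10 such markers was 9.91 to 10.5 CPM in control and 17.1 to 17.9 CPM in KO libraries. CSF1R (log2 fold change 2.40) and CD14 (0.62) were called higher. Of 9 epithelial and mesenchymal markers, which summed to 4733 to 5622 CPM in control and 4009 to 4410 CPM in KO libraries, KRT8 (log2 fold change -0.60), KRT18 (-0.51), KRT19 (-0.70) and EPCAM (-0.86) were called lower. VIM passed the test below the fold threshold (0.30). KRT7 (-0.065, edgeR adjusted p 0.575), CDH2 (-0.11, adjusted p 0.251) and FN1 (0.008, adjusted p 0.949) did not pass it, and CDH1 had 0 to 3 counts per library. The part of these markers in the results below was not tested, and in such bulk samples fewer cells of a type and less RNA per cell cannot be told apart.

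The members farthest from zero were 2 class II alpha chains, which fell, while class I heavy chains and the immunoproteasome held no call. HLA-DRA fell 2.39-fold, HLA-DPA1 1.81-fold and their transactivator CIITA 1.55-fold, and CD74, TAPBPL and ULBP1 were also lower. TAP2, ERAP2 and CTSS were higher. Of the 40 members 35 passed the filter on low counts, and of these 6 were called lower and 3 higher, 25.7% in all against 16.0% of the 15647 genes tested. The 5 members that did not pass the filter were HLA-DRB1, HLA-DPB1, HLA-DQA1, HLA-DQB1 and HLA-DMB. Called lower were 8.39% and called higher 7.57% of all genes tested. With the adjusted p alone, 6 members were lower and 7 higher (37.1% against 29.4% of all genes). Non-overlapping CPM values were seen in 17 of the 35 members (48.6%) and in 41.3% of all genes. The median log2 fold change over these members was 0.002, beside -0.001 over all genes tested, with 17 members below and 18 above zero. Without the class II group, 3 of 30 members were called lower and 2 higher, 16.7% in all, which is close to the background.

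**Figure D1:**
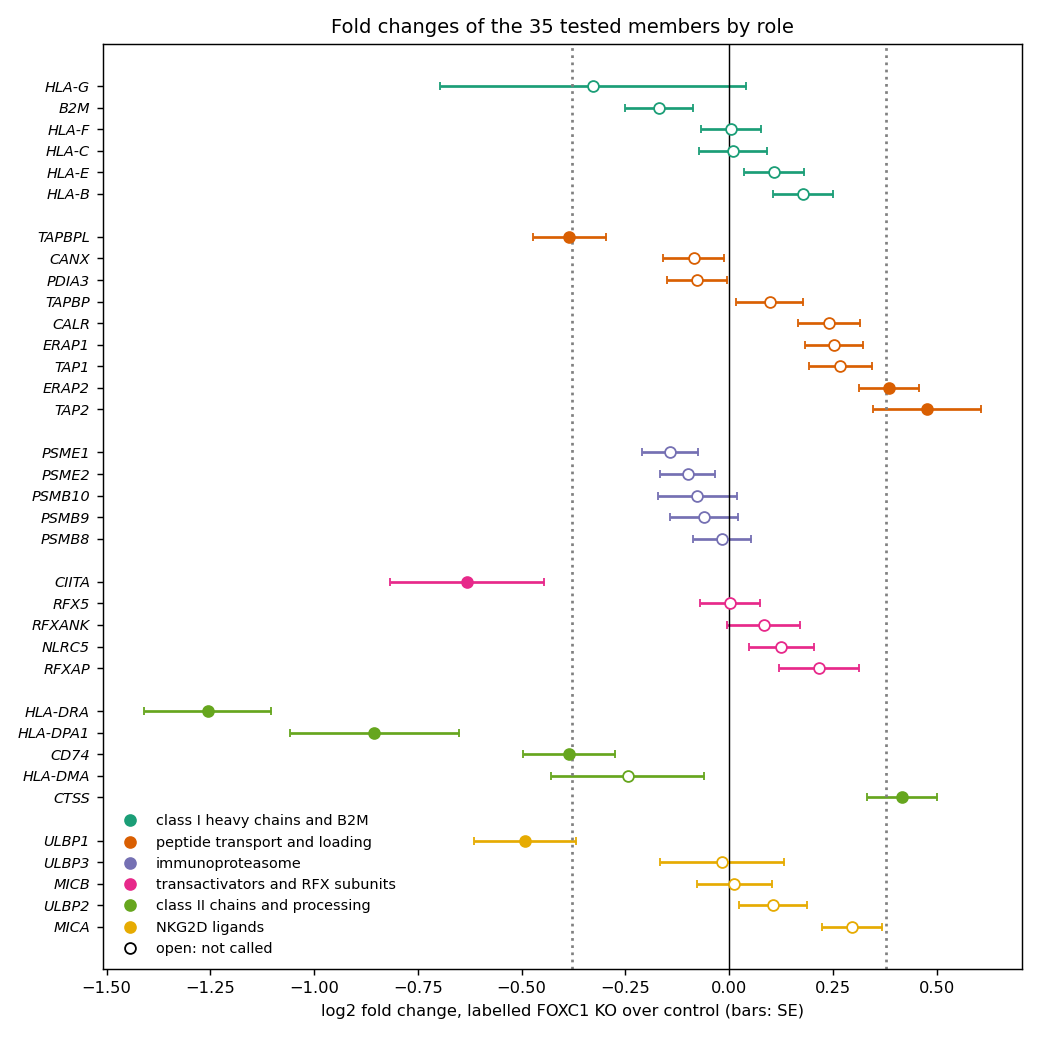
Log2 fold changes (horizontal axis, libraries labelled FOXC1 KO over control, bars show the SE) of the 35 tested members, grouped and coloured by role, with filled points for called genes, open points for the rest and dotted lines at the 1.3-fold threshold. HLA-DRA (-1.26) and HLA-DPA1 (-0.86) lie farthest from zero, and no class I heavy chain or immunoproteasome gene is filled.

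Class II genes were present at low levels in J82. Of the class II alpha chains, HLA-DRA (ENSG00000204287.9, GRCh37 chromosome 6, 32407655 to 32412823, plus strand) had 5.53, 5.45 and 5.74 CPM in the control and 2.50, 1.90 and 2.63 CPM in the KO libraries. Every KO library was lower than every control library, by a wide margin. Its log2 fold change was -1.26 (edgeR, SE 0.152, adjusted p 1.94e-07), from 124 to 146 counts per control and 46 to 62 counts per KO library. Relative to HLA-B in the same library, a ratio that needs no scaling, HLA-DRA also lay lower in all KO libraries (0.00203 to 0.00302 against 0.00649 to 0.00759, exact permutation p 0.1, two-sided, the smallest that 3 against 3 can give).

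HLA-DPA1 (ENSG00000231389.3, chromosome 6, 33032346 to 33048552, minus strand), the alpha chain of HLA-DP, had 2.81, 1.97 and 2.59 CPM in the control and 1.14, 1.43 and 1.44 CPM in the KO libraries. Again the groups did not overlap, and the log2 fold change was -0.86 (edgeR, SE 0.204, adjusted p 0.00191) on 48 to 66 and 21 to 36 counts. HLA-DPA1 overlaps HLA-DPB1 on the other strand, and the strand setting of the counting is not stated, so reads of these genes could be exchanged. HLA-DRA and HLA-DPA1 kept their calls in all alternatives that tested them, with log2 fold changes from -1.37 to -1.11 and from -0.997 to -0.76.

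The beta chains that complete these molecules had few counts. How reads matching more than 1 gene were counted is not stated, so few or 0 counts do not show that a chain was absent. HLA-DRB1 had 3, 5 and 2 counts in the control and 0, 0 and 2 in the KO libraries, and HLA-DPB1 had 0, 2 and 3 in the control and 0, 1 and 0 in the KO libraries. HLA-DQA1 and HLA-DQB1 had 0 counts in all 6 libraries, where 3 counts, taken as the floor of counting error, would be 0.118 to 0.163 CPM. Summed over the 6 class II chains, the control libraries held 190, 188 and 217 counts and the KO libraries 67, 85 and 98, or 7.70 to 8.53 and 3.37 to 4.16 CPM, most of them from HLA-DRA and HLA-DPA1.

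CD74 (ENSG00000019582.10, chromosome 5, 149781200 to 149792532, minus strand), the invariant chain, had 17.8, 14.8 and 13.0 CPM in the control and 11.4, 12.6 and 10.7 CPM in the KO libraries. The groups lay close together without overlap, with a log2 fold change of -0.39 (edgeR, SE 0.111, adjusted p 0.00924). This call was the least stable of the group: the fold fell short of 1.3 without control replicate 1 (log2 -0.27), KO replicate 1 (-0.38) or KO replicate 3 (-0.34), and the adjusted p was 0.0487 at most.

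The genes of the peptide exchange factor HLA-DM had few counts. Both overlap another gene model on their own strand, so their counts depend on how such reads were assigned. HLA-DMA had 2.27, 2.13 and 2.59 CPM in control and 2.28, 1.90 and 1.78 CPM in KO libraries (log2 fold change -0.24, SE 0.184, adjusted p 0.345), and HLA-DMB had 5 to 13 counts per library. CTSS (ENSG00000163131.6, chromosome 1, 150702555 to 150738433, minus strand), the protease cathepsin S that trims the invariant chain, rose instead. It had 27.4, 30.9 and 30.3 CPM in the control and 41.3, 36.1 and 41.0 CPM in the KO libraries. All KO values were above all control values, and the log2 fold change was 0.42 (edgeR, SE 0.0845, adjusted p 0.000343). Without control replicate 1 the fold was just under the threshold (log2 0.36). Of the 10 genes of the class II group 5 were tested, and of these 3 were thus called lower and 1 higher. That is 80.0% of few tested genes, against 16.0% of all genes tested, and their median log2 fold change was -0.39.

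**Figure D2:**
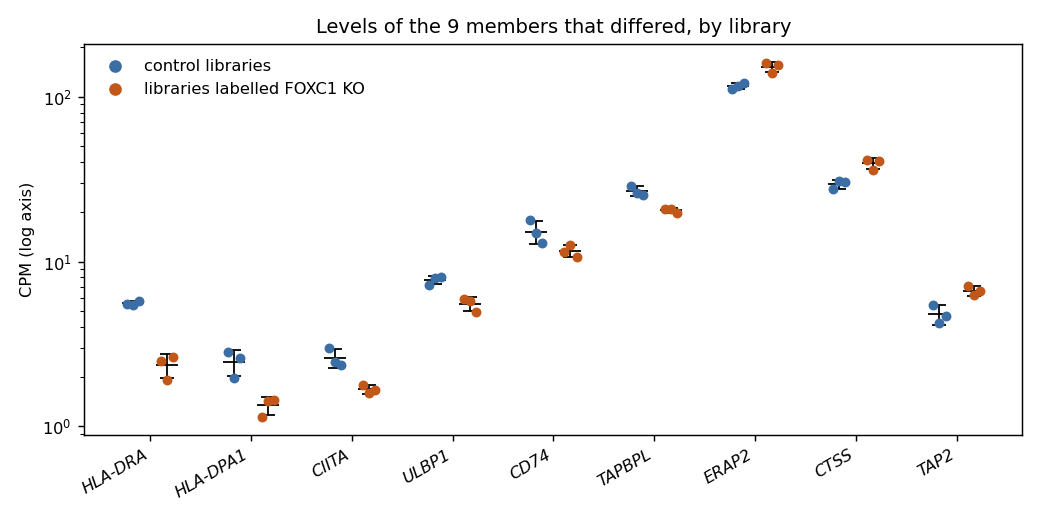
CPM on a log axis of the 9 called members in each library (points), with the mean and SD of each group (black bars, n = 3). In each of the 9 genes the values of the control libraries and of the libraries labelled FOXC1 KO do not overlap.

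Among the transactivators, only CIITA was called. CIITA (ENSG00000179583.13, chromosome 16, 10960079 to 11036878, plus strand) had 2.99, 2.46 and 2.36 CPM in the control and 1.79, 1.59 and 1.66 CPM in the KO libraries. Its groups did not overlap, and its log2 fold change was -0.63 (edgeR, SE 0.186, adjusted p 0.0104) on 60 to 67 and 33 to 40 counts. With DESeq2 the adjusted p was 0.0854, so this call depends on the tool. NLRC5, the class I transactivator, had 51.9, 48.6 and 53.1 CPM in control and 54.1, 60.6 and 52.8 CPM in KO libraries, an overlap, with a log2 fold change of 0.13 (edgeR, SE 0.0782, adjusted p 0.240). The ratio of CIITA to NLRC5 counts within a library was 0.0444 to 0.0575 in control and 0.0262 to 0.0332 in KO libraries.

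The RFX subunits, shared by class I and class II promoters, gave no call. RFX5, which binds the X box, had 91.0, 87.5 and 94.8 CPM in the control and 92.3, 93.5 and 87.7 CPM in the KO libraries (adjusted p 0.990). RFXANK had 33.7, 29.1 and 28.9 CPM in the control and 30.6, 35 and 31.2 CPM in the KO libraries (adjusted p 0.515). RFXAP had 16.9, 19.4 and 19.1 CPM in the control and 22.0, 19 and 23.6 CPM in the KO libraries (log2 fold change 0.22, SE 0.0965, adjusted p 0.0915). In all 3 the groups overlapped.

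B2M was the most abundant member per length, and the class I heavy chains covered a wide range. Scaled to transcript length, control libraries held 5017 CPM per kb of B2M, 513 of HLA-B, 80.5 of HLA-E, 63.0 of HLA-F, 59.4 of HLA-C and 0.711 of HLA-G. HLA-F and HLA-C, neighbours in this order, did not differ beyond their spread, and class I genes share stretches of sequence, so their levels are uncertain relative to one another. By edgeR 0 of the 6 genes of this group were called, as with DESeq2, and 1 was higher and 1 lower at an unadjusted p under 0.05.

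HLA-B (ENSG00000234745.5, chromosome 6, 31321649 to 31334844, minus strand) had 852, 757 and 756 CPM in the control and 868, 935 and 871 CPM in the KO libraries. The groups did not overlap, but control replicate 1 lay close to the KO values, and the log2 fold change of 0.18 (SE 0.0720) had an adjusted p of 0.0622. That p was 0.0349 with DESeq2 and 0.00839 without control replicate 1, with folds under 1.3 throughout. B2M, the light chain of all class I molecules, had 4257, 4970 and 4965 CPM in the control and 4383, 3840 and 4397 CPM in the KO libraries. Here the groups overlapped, since control replicate 1 lay within the range of the KO libraries (log2 fold change -0.17, SE 0.0810, adjusted p 0.117). Without that library the log2 fold change was -0.248 (adjusted p 0.00644). Within a library, the ratio of B2M to HLA-B counts was 6.05 ± 0.906 in control and 4.73 ± 0.545 in KO libraries (SD, n = 3, exact permutation p 0.3, overlapping).

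HLA-C had 100, 87.6 and 87.3 CPM in the control and 80.6, 101 and 94.4 CPM in the KO libraries, and HLA-F had 96.9, 90.0 and 92.8 against 91.8, 99.8 and 88.9 CPM. Neither showed a shift between groups (log2 fold changes 0.01 and 0.01, SE 0.0816 and 0.0725). HLA-E, which presents leader peptides to receptors of natural killer cells, had 226, 193 and 197 CPM in the control and 217, 229 and 218 CPM in the KO libraries (log2 fold change 0.11, SE 0.0718, adjusted p 0.275, and 0.0445 without control replicate 1). HLA-G was near its detection limit with 6 to 34 counts, and KO replicate 2 stood apart from the other KO libraries (1.35 CPM against 0.326 and 0.425). Its log2 fold change was -0.33 (adjusted p 0.547) with that library and -1.27 (adjusted p 0.0225) without it. When the counts of 17 class I genes, these heavy chains and pseudogenes like them, were summed, the sum was 1189 ± 84.0 CPM in control and 1310 ± 59.5 CPM in KO libraries (SD, n = 3, log2 fold change 0.14, SE 0.0732, adjusted p 0.156).

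Of the 9 peptide transport and loading genes 2 were called higher and 1 lower (33.3% against 16.0% of all genes tested). Of the log2 fold changes 6 lay above and 3 below zero, with a median of 0.24. TAP2 (ENSG00000204267.9, chromosome 6, 32789610 to 32806516, minus strand), a subunit of the peptide transporter, had 5.48, 4.22 and 4.64 CPM in the control and 7.12, 6.26 and 6.58 CPM in the KO libraries. All KO libraries were higher, with a log2 fold change of 0.48 (edgeR, SE 0.130, adjusted p 0.00607) that held in all 13 alternative fits. TAP1, its partner, had 107, 90.6 and 94.5 CPM in the control and 124, 118 and 109 CPM in the KO libraries. It was 1.20-fold higher, below the fold threshold (log2 0.27, SE 0.0764, adjusted p 0.00827), and the adjusted p was 0.0636 without control replicate 2 and 0.0611 without KO replicate 1. TAP2 had fewer counts than TAP1, at 0.0466 to 0.0512 of the TAP1 counts in control and 0.0529 to 0.0603 in KO libraries. TAP2 overlaps another gene model on its own strand and TAP1 does not, so this ratio does not rank the levels of the subunits.

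Both trimming enzymes of the endoplasmic reticulum passed the test, 1 of them past the fold threshold. ERAP2 (ENSG00000164308.12, chromosome 5, 96211690 to 96255407, plus strand) had 112, 116 and 122 CPM in the control and 161, 140 and 156 CPM in the KO libraries, with no overlap. Its log2 fold change of 0.39 (edgeR, SE 0.0720, adjusted p 0.000137) sat at the fold threshold: it fell below it without control replicate 1 (0.35), control replicate 2 (0.38), KO replicate 1 (0.34) or KO replicate 3 (0.36), with library size alone (0.38) and with a mean of at least 50 counts (0.37), while the adjusted p was 0.00242 at most. ERAP1, its neighbour on chromosome 5, had 136, 132 and 132 CPM in the control and 170, 152 and 156 CPM in the KO libraries. It was 1.19-fold higher (adjusted p 0.00637), and 0.0611 without KO replicate 1.

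TAPBPL (ENSG00000139192.7, chromosome 12, 6560856 to 6575683, plus strand), which encodes a tapasin-related peptide editor, was the gene of this group called lower. It had 28.8, 26.2 and 25.3 CPM in the control and 20.9, 20.9 and 19.7 CPM in the KO libraries. The groups stood well apart, and its log2 fold change of -0.38 (edgeR, SE 0.0876, adjusted p 0.00121) was just past the threshold and short of it without control replicate 1 (-0.34) or KO replicate 3 (-0.36). Tapasin itself, TAPBP, had 53.3, 44.3 and 48.9 CPM in control and 51.5, 54.8 and 50.3 CPM in KO libraries (adjusted p 0.393). TAPBPL overlaps VAMP1 and CD27, and TAP2 overlaps a gene model on its own strand, so their counts depend on how such reads were assigned.

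The lectin chaperones and their partner behaved unequally. CALR, calreticulin, had 1939, 1653 and 1756 CPM in the control and 2159, 2127 and 2029 CPM in the KO libraries, 1.18-fold higher without overlap (adjusted p 0.0155). That adjusted p passed 0.05 without control replicate 2 (0.134), control replicate 3 (0.0701) or KO replicate 1 (0.0568). CANX, calnexin, had 1668, 1541 and 1664 CPM in control and 1637, 1428 and 1529 CPM in KO libraries, and PDIA3, the oxidoreductase of the loading complex, 1000, 903 and 966 against 969, 862 and 888 CPM. Both overlapped between groups (adjusted p 0.418 and 0.450).

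The immunoproteasome subunits did not pass the test. PSMB8 had 118, 113 and 109 CPM in the control and 109, 116 and 111 CPM in the KO libraries. PSMB9 had 79.0, 67.7 and 68.5 CPM in the control and 62.0, 74.9 and 68.9 CPM in the KO libraries. PSMB10 had 24.5, 20.1 and 19.3 CPM in the control and 20.2, 20.4 and 19.9 CPM in the KO libraries. These catalytic subunits overlapped between groups (adjusted p 0.880, 0.621 and 0.587). PSME1, a subunit of the activator PA28, had 295, 285 and 283 CPM in the control and 250, 270 and 263 CPM in the KO libraries, and PSME2, the other, 279, 285 and 272 against 258, 256 and 266 CPM. Both lay lower in every KO library, but the shifts were small (log2 fold changes -0.14 and -0.10, adjusted p 0.112 and 0.275). By edgeR and by DESeq2 0 of the 5 genes were called, and 1, PSME1, had an unadjusted p under 0.05.

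Each inducible catalytic subunit replaces a constitutive one, so their ratio within a library was compared, for pairs picked with the values known. PSMB8 to PSMB5 was 0.815, 0.849 and 0.884 in control and 0.688, 0.684 and 0.710 in KO libraries. PSMB9 to PSMB6 was 0.700, 0.657 and 0.734 in control and 0.520, 0.539 and 0.539 in KO libraries. Both ratios were lower in every KO library (log2 differences -0.29 and -0.39, exact permutation p 0.1 each, two-sided, the smallest possible). The third pair, PSMB10 to PSMB7, overlapped (0.0553 to 0.0646 and 0.0532 to 0.0585, exact permutation p 0.4). The shift lay in the constitutive partners: PSMB5 was at 134 ± 10.9 and 161 ± 6.71 CPM (log2 fold change 0.27, adjusted p 0.00514) and PSMB6 at 103 ± 9.75 and 129 ± 9.91 CPM (0.32, adjusted p 0.00206), both under the 1.3-fold threshold.

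TAP1 and PSMB9 are transcribed head to head in the MHC and are known to share a promoter region, and their annotated gene models overlap. TAP1 to PSMB9 was 1.36, 1.34 and 1.38 in control and 2.01, 1.58 and 1.58 in KO libraries (log2 difference 0.33, exact permutation p 0.1). KO replicate 1 was the highest and the others also lay above every control library. In total 11 ratios were computed, and with 3 against 3 libraries none of them can reach 0.05.

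**Figure D3:**
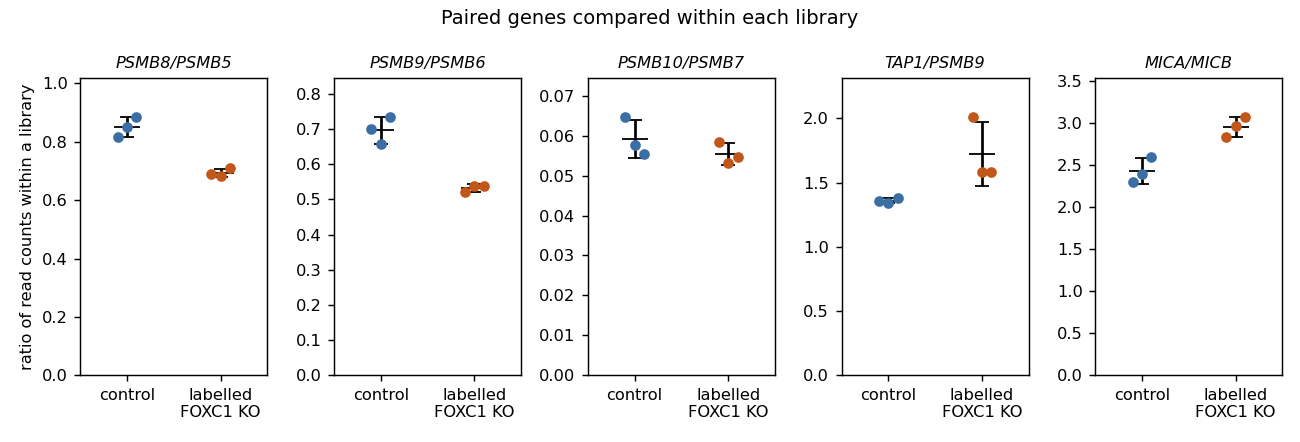
Ratio of the read counts of paired genes within each library (points, vertical axes from 0), with the mean and SD of each group (black bars, n = 3). PSMB8/PSMB5 and PSMB9/PSMB6 lie lower, and TAP1/PSMB9 and MICA/MICB higher, in every library labelled FOXC1 KO, while PSMB10/PSMB7 overlaps between groups.

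The NKG2D ligands, stress-induced MHC-like proteins that natural killer cells recognise, did not move together. ULBP1 (ENSG00000111981.4, chromosome 6, 150285079 to 150294851, plus strand) had 7.22, 7.94 and 8.10 CPM in the control and 5.92, 5.75 and 4.93 CPM in the KO libraries. All KO values were lower, with a log2 fold change of -0.49 (edgeR, SE 0.122, adjusted p 0.00259) that held in 13 alternative fits. ULBP2, near it on the same arm, had 26.5, 29.0 and 28.3 CPM in the control and 30.5, 29.1 and 30.5 CPM in the KO libraries (log2 fold change 0.10, adjusted p 0.366). ULBP3 was at 3.32 to 4.01 and 3.33 to 4.12 CPM (adjusted p 0.947). Because these genes are similar in sequence, their counts were also summed, and the sum was level (log2 fold change -0.006, adjusted p 0.965).

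MICA (ENSG00000204520.8, chromosome 6, 31367561 to 31383092, plus strand) had 62.0, 58.1 and 58.8 CPM in the control and 73.3, 76.1 and 70.3 CPM in the KO libraries. Its groups did not overlap, and it was 1.23-fold higher (log2 0.30, SE 0.0734, adjusted p 0.00263), under the fold threshold in every alternative. MICB, close to it in the MHC, had 27.0, 24.2 and 22.6 CPM in control and 25.9, 25.6 and 22.9 CPM in KO libraries (adjusted p 0.937). The ratio of MICA to MICB counts was 2.43 ± 0.156 in control and 2.96 ± 0.122 in KO libraries (SD, n = 3, exact permutation p 0.1, no overlap), and their sum was 84.2 ± 4.18 and 98.0 ± 4.42 CPM (log2 fold change 0.22, adjusted p 0.0220).

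Since 20 members lie in the MHC on chromosome 6, the other genes that start between HLA-F (29690552) and TAPBP (33267471) were compared with the members. Of 278 such genes 74 were tested, 4 were called higher and 0 lower by edgeR, 5.41% in all against 16.0% of all genes. At an unadjusted p under 0.05, 1 was lower and 21 higher. DESeq2 called 3 of these genes higher and 1 lower, TRIM31, on 0 to 14 counts, a gene named after its value was seen. The called genes were IER3 (log2 fold change 1.37, SE 0.125, adjusted p 8.26e-10), an early response gene, VARS1 (0.53, SE 0.0809, adjusted p 8.48e-06), a tRNA synthetase, HCP5 (0.50, SE 0.133, adjusted p 0.00475), a non-coding RNA gene between MICA and MICB, and GPSM3 (0.67, SE 0.220, adjusted p 0.0226). The neighbours had a median log2 fold change of 0.10 with 56 of 74 above zero, while the 15 tested members of the region had a median of 0.009. HLA-DRA and HLA-DPA1 were lower, while over the whole region most neighbours lay above zero. The tested genes between HLA-DRA and HLA-DPA1 were mixed. The neighbour BRD2 (-0.125) and the members HLA-DMA (-0.245), PSMB9 (-0.061) and PSMB8 (-0.017) lay below zero, and TAP1 (0.268) and TAP2 (0.476) above. A regional cause was not tested. Of the 20 members outside the region, 4 were called lower and 2 higher, with a median of -0.05.

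**Figure D4:**
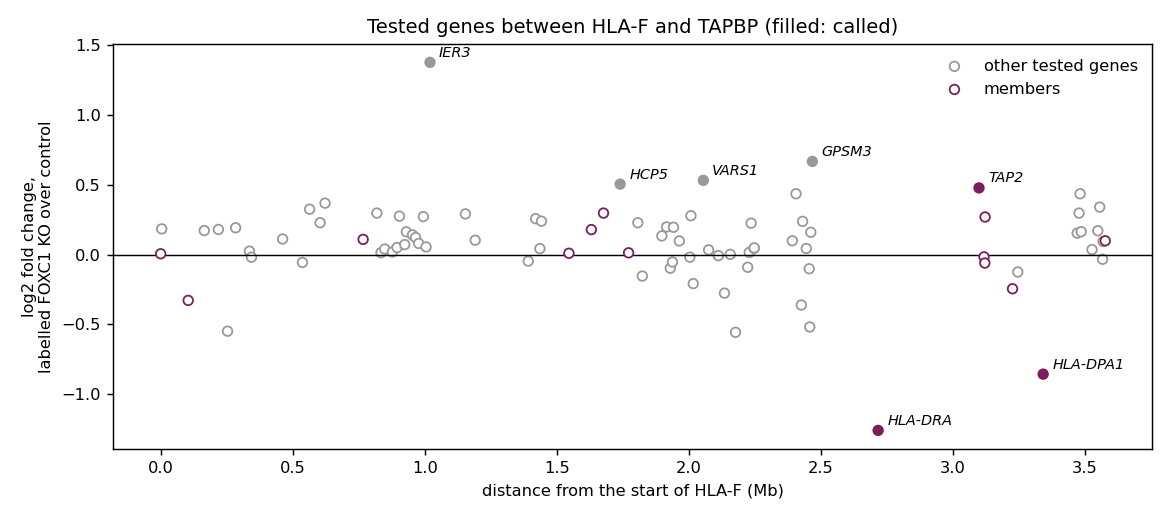
Log2 fold change (libraries labelled FOXC1 KO over control) of tested genes against their distance in Mb from the start of HLA-F, for 15 members (purple) and 74 other genes (grey), with filled points for called genes. HLA-DRA and HLA-DPA1 are the lowest points, and most grey points lie above zero.

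Further genes of the pathway, from lists set by role, were read from the same fit. Of 52 genes 51 were in the table and 43 were tested, of which 3 were called lower and 2 higher, 11.6% in all against 16.0% of all genes tested, with a median log2 fold change of 0.05. On the route from interferon gamma to the MHC, 1 of 11 genes was called. STAT2, which acts downstream of type I interferon receptors, was at 262 ± 10.8 CPM (SD, n = 3) in control and 189 ± 9.65 CPM in KO libraries (log2 fold change -0.47, SE 0.0691, adjusted p 4.45e-06). IRF2 was at 44.2 ± 3.99 and 35.5 ± 1.02 CPM (-0.32, adjusted p 0.00419), under the fold threshold. IRF1, which drives class I promoters and CIITA, was at 119 ± 9.36 and 123 ± 3.34 CPM (adjusted p 0.631), and the receptor genes IFNGR1 and IFNGR2 had adjusted p of 0.865 and 0.900.

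The proteases that share the endosome with class II molecules changed in opposite directions. CTSL fell from 303 ± 7.07 to 204 ± 7.28 CPM (SD, n = 3, log2 fold change -0.57, SE 0.0672, adjusted p 1.27e-07), and CTSB from 452 ± 32.2 to 334 ± 8.91 CPM (-0.44, SE 0.0701, adjusted p 1.71e-05). LGMN, the asparaginyl endopeptidase legumain, rose from 53.1 ± 4.30 to 71.8 ± 4.08 CPM (0.43, SE 0.0784, adjusted p 8.64e-05), in the same direction as CTSS. CTSD was 1845 ± 246 and 1467 ± 110 CPM (-0.33, adjusted p 0.00324), under the fold threshold. Of this list of 10 genes 4 were tested, and HLA-DOA, HLA-DRB5, HLA-DQA2 and HLA-DQB2 had 0 counts in all libraries.

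Of 6 tested class I-like genes and further NKG2D ligands, PROCR, the endothelial protein C receptor, was the 1 called gene, at 38.0 ± 1.20 CPM in control and 64.4 ± 2.94 CPM in KO libraries (log2 fold change 0.76, SE 0.0764, adjusted p 5.66e-09). HFE, the haemochromatosis protein, was 1.24-fold higher (adjusted p 0.00243), and MR1, which presents vitamin metabolites, had an adjusted p of 0.370. Among 7 other factors of MHC promoters 0 were called by edgeR and by DESeq2, 1 was lower and 1 higher at an unadjusted p under 0.05, and NFYA had the smallest adjusted p (0.24, SE 0.0792, adjusted p 0.0220). The constitutive proteasome gave 0 calls over 15 tested genes by both tools, with 12 above and 3 below zero and a median of 0.12. By edgeR 4 were higher at an unadjusted and 3 at an adjusted p under 0.05, below the fold threshold. The 3 were PSMB5, PSMB6 and PSMA3 (0.25, adjusted p 0.0134).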

How the data were processed

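RNA-seq of polyadenylated transcripts gave paired reads of 75 bases from 6 J82 libraries. The authors aligned them to hg19 with STAR and deposited raw read counts per GENCODE version 19 gene from featureCounts (Subread). Versions and the settings for strand and multi-mapping reads are not given in the sources used here. All 57820 rows named a gene, and 0 columns belonged to other samples.

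Symbols and coordinates came from GENCODE v44 lifted to GRCh37, the assembly of hg19 (55538 identifiers, 96.05%, matched), so gene ends may differ from those counted. Of the 40 members 27 overlap another annotated gene, 9 of them on the same strand. Genes were kept with filterByExpr, scaled with TMM and tested by robust quasi-likelihood in edgeR 4.0.16 (R 4.3.3, limma 3.58.1) with group as the only term. Adjusted p is Benjamini-Hochberg over 15647 genes. The study used DESeq2, run here as an alternative (version 1.42.0). SEs were derived from F. CPM used TMM-scaled totals, and values per kb the canonical transcript's length. The fit was tested on simulated data. Counting intervals and floors cover counting error only.

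Groups came from sample titles. The members, lists and ratios were chosen with earlier results of these data known. Values of every library are given for called members and those whose mean reached 10 CPM, and of other lists at most 5 called genes are named. Single values of some listed genes are not reported here.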

Additional observations from a re-analysis of the deposited data

How the results depend on the processing

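Counts of calls, medians and single members were recomputed with DESeq2, with RLE size factors or library size alone for scaling, without the filter on low counts or with a mean of at least 50, on counts thinned to the smallest total, with replicate number as a block, without each library, with near-identical genes summed (for HLA-B, MICA and ULBP1), and with the adjusted p as the only threshold. For counts and medians 204 recomputed values held their direction and stayed within their spread or 1.5 times their count, and 25 did not. Among single members 439 values kept direction and call, 15 lost and 5 gained a call, and 31 changed sign.

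With no fold threshold 2233 genes were lower and 2372 higher, 7 members were higher, 6 pathway genes were lower and 7 higher, and 1 MHC neighbour was lower and 13 higher, as fewer conditions are then set. The MHC neighbours held 1 lower gene with DESeq2 and 1 with no filter on low counts. The class II median was -0.625 with DESeq2 and -0.623 with no filter on low counts, where more low genes enter. Members called ranged from 4 to 7 lower and from 1 to 3 higher across the fits without 1 library, the lowest higher count being without control replicate 1. Over the same fits pathway genes ranged from 3 to 5 lower, the most without control replicate 2, and from 1 (without control replicate 2) to 4 higher (without control replicate 1). Their median ranged from 0.039 to 0.081. The immunoproteasome median ranged from -0.117 to 0.005, that of the transactivators from 0.021 to 0.128, of class II from -0.489 to -0.271 and of the NKG2D ligands from -0.006 to 0.063. The MHC neighbours' median was 0.051 without KO replicate 2 and 0.065 without control replicate 2, and that of the immunoproteasome was above zero without control replicate 1 alone.

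Signs changed only in members near zero. HLA-C was -0.004 and MICB -0.001 with a mean of at least 50 counts. HLA-F was -0.003 with library size alone, -0.008 with a mean of at least 50 counts and -0.005 after thinning, and PSMB8 was 0.002 after thinning. RFX5 was -0.007, -0.012 and -0.008 in those 3 settings and -0.001 with no filter. Across the fits without 1 library HLA-C ranged from -0.064 to 0.091, HLA-F from -0.044 to 0.034, PSMB8 from -0.045 to 0.005, PSMB9 from -0.128 to 0.006, PSMB10 from -0.145 to 0.025, RFX5 from -0.031 to 0.032, MICB from -0.046 to 0.075 and ULBP3 from -0.118 to 0.059. The cause was not tested.

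Libraries with the same replicate number did not deviate together (correlations of -0.027, -0.072 and 0.05), and the main fit did not pair them. With 3 libraries per group this cannot exclude that equal numbers shared a preparation. A fit with that block called 1351 genes lower and 1200 higher, and CD74 (-0.378) was the 1 member that lost its call, at the fold threshold. Members with few counts, such as HLA-DPA1, HLA-DMA and HLA-G, are limited by depth, and an absent call there does not show an equal level.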
